A study of Homo sapiens with 6 samples.

Results

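Axon guidance ligands and receptors were examined in HEK293 cells, an established line of human embryonic kidney origin. They were taken as all gene symbols of the semaphorin, plexin, neuropilin, ephrin, Eph, Slit, Robo, netrin, UNC5 and DCC families in the authors' TPM table, which gave 69 of 58395 genes, 35 encoding ligands and 34 encoding receptors. Each gene was counted in 6 libraries, 1 from each of 6 clonal lines. GST lines 2, 8 and 9 overexpressed glutathione S-transferase, written GST-3F in the labels. NOCT lines 4, 11 and 12 overexpressed nocturnin without residues 2 to 15, written NOCT ∆(2-15)-3F. All lines had the HEK293 background, grew in the same medium and carried a protein with the tag named 3F. Every line is a single clone, so the spread between lines of a group includes differences between clones, and the promoter of the constructs is not given in the sources used here. The comparison asks how the RNA of these genes differs between lines with the truncated nocturnin and lines with the control protein.

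Guidance cues steer growing axons and migrating cells by attraction or repulsion, and the same ligand and receptor pairs act in epithelia, vessels and the developing kidney. Secreted class 3 semaphorins bind neuropilins that signal through plexins, while semaphorins of the other classes are mostly membrane-bound and bind plexins directly. Ephrins are ligands held at the cell surface, by a lipid anchor in the A class and by a transmembrane segment in the B class, and they activate Eph receptor tyrosine kinases on neighbouring cells. Slits are secreted ligands of Robo receptors, and netrins attract through DCC and repel through UNC5 receptors. SLIT2 and ROBO2 are known for limiting the site at which the ureteric bud forms in the kidney.

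The libraries held 19729745 to 24422406 gene counts each. The construct rows matched the labels: the GST construct had 46 to 88 counts in the GST lines and 0 or 1 in the NOCT lines, and the NOCT construct had 46 to 82 counts in the NOCT lines and 3 to 7 in the GST lines. Of 8 genes listed as markers of HEK293 cells, 5 had at least 1 TPM in every line. The exceptions were PAX2, at 1.80 to 2.45 TPM in GST lines and 0.370 to 0.618 in NOCT lines, NEFM, at 4.44 TPM in NOCT line 12 and under 1 TPM in the other lines, and PROM1, at 3.58 and 2.09 TPM in NOCT lines 4 and 11 and under 1 TPM elsewhere. Markers of leukocytes (4 genes), endothelium (4), hepatocytes (2) and keratinocytes (3) were under 1 TPM in every line, and CD3E, KRT5 and KRT14 were at 0 throughout. Of 6 markers of mature neurons, MAP2 and SYP had at least 1 TPM in every line, and the summed level was 12.4 to 13.9 TPM in GST lines and 9.39 to 18.9 TPM in NOCT lines. MAP2 was at 2.37 to 3.95 TPM in GST lines and 4.37 to 8.84 TPM in NOCT lines, SYT1 at 2.29 to 6.33 and 0 to 2.81 TPM, and RBFOX3 was at most 0.148 TPM. Of 4 glial markers, MBP and OLIG2 had at least 1 TPM in every line, GFAP was at most 0.0704 TPM, and the sums were 5.87 to 6.28 TPM in GST lines and 6.05 to 8.22 TPM in NOCT lines. The part of these marker levels in the guidance gene values was not tested. Of 5 fibroblast markers, COL1A1 alone had at least 1 TPM in every line and COL1A2 was at 0 in all 6, with a summed level of 3.78 to 4.56 TPM in GST lines and 2.56 to 9.25 in NOCT lines.

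Levels were compared between genes in TPM, which is scaled for gene length and depth. HEK293 lines carried a broad set of guidance RNAs: 57 of the 69 genes had a mean of at least 1 TPM over the 6 lines, and 18 had at least 10 TPM. The most abundant was EPHA7, an Eph receptor, with a mean of 73.8 TPM. PLXNB2, a plexin, followed with 53.7 TPM, then SLIT2 with 52.6, ROBO1 with 43.2 and EFNB2, a B-class ephrin, with 42.3. At the other end ROBO4, the Robo of vascular endothelium, had no count in any line, which allows up to 3 counts per library, and DCC had a mean of 0.0131 TPM. Of the UNC5 and DCC genes, UNC5B (14.2 TPM) and UNC5C (8.90 TPM) had the highest means, beside netrin-1 itself (NTN1, 21.8 TPM). NEO1, the DCC relative neogenin, which also binds netrins but is not among the 69 genes, had a mean of 65.8 TPM.

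**Figure D1:**
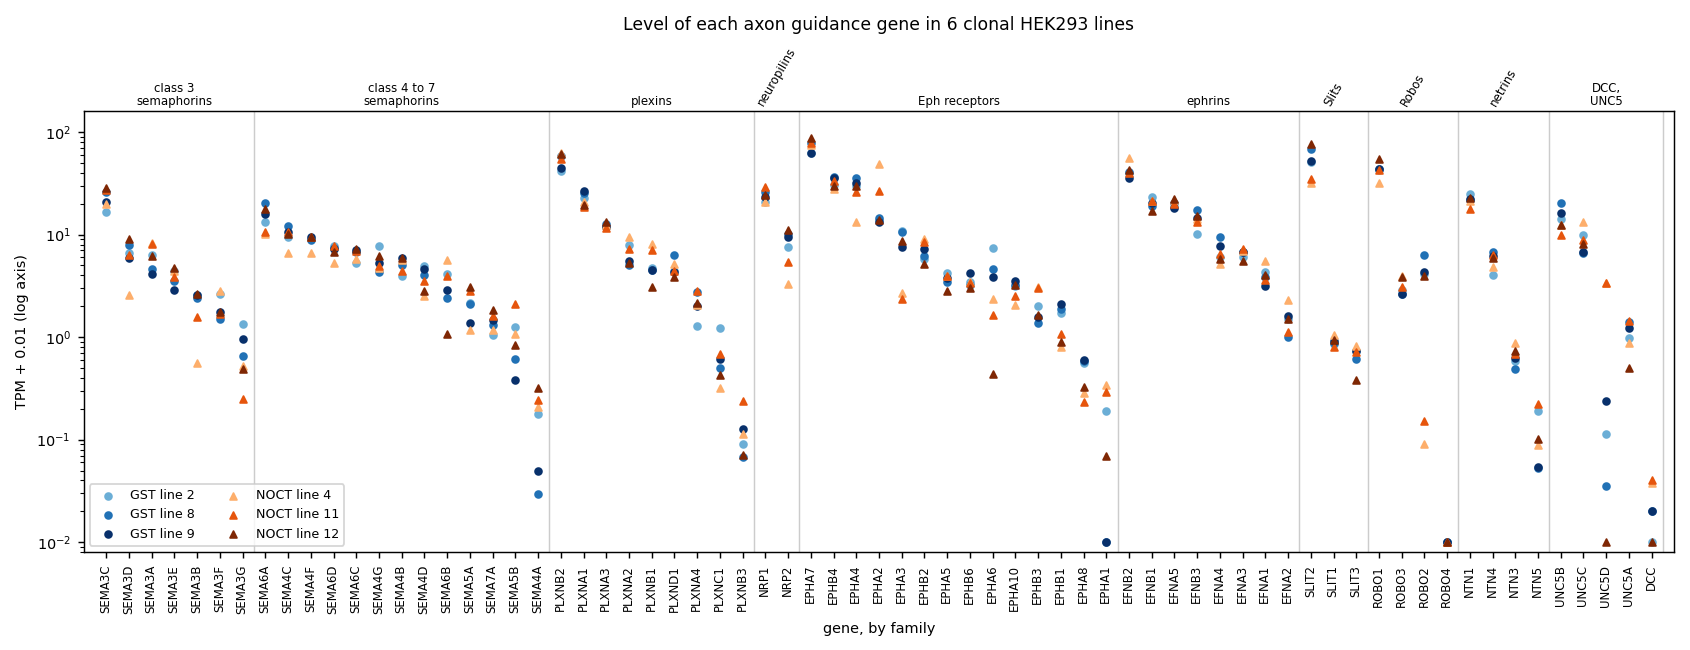
TPM + 0.01 on a log axis for the 69 genes, grouped by family and ordered by mean level; circles are GST lines, triangles NOCT lines, 1 point per line. Most genes keep the 6 points close together, while ROBO2 and UNC5D are among those that spread over more than 1 order of magnitude.

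Summed over all 69 genes, the level was 712 ± 51.9 TPM in GST lines and 716 ± 40.0 TPM in NOCT lines (SD, n = 3 each), so the total did not move by more than the spread between lines. Eph receptors made up the largest part, a mean of 26.3% of the sum. Ephrins followed with 16.3% and plexins with 15.2%. The least even family was the Slits, in which SLIT2 made up nearly all of the sum: 52.3, 70.6 and 53.5 TPM in GST lines 2, 8 and 9, and 33.98, 36.2 and 78.4 TPM in NOCT lines 4, 11 and 12. The NOCT lines thus lay on both sides of the GST lines.

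**Figure D2:**
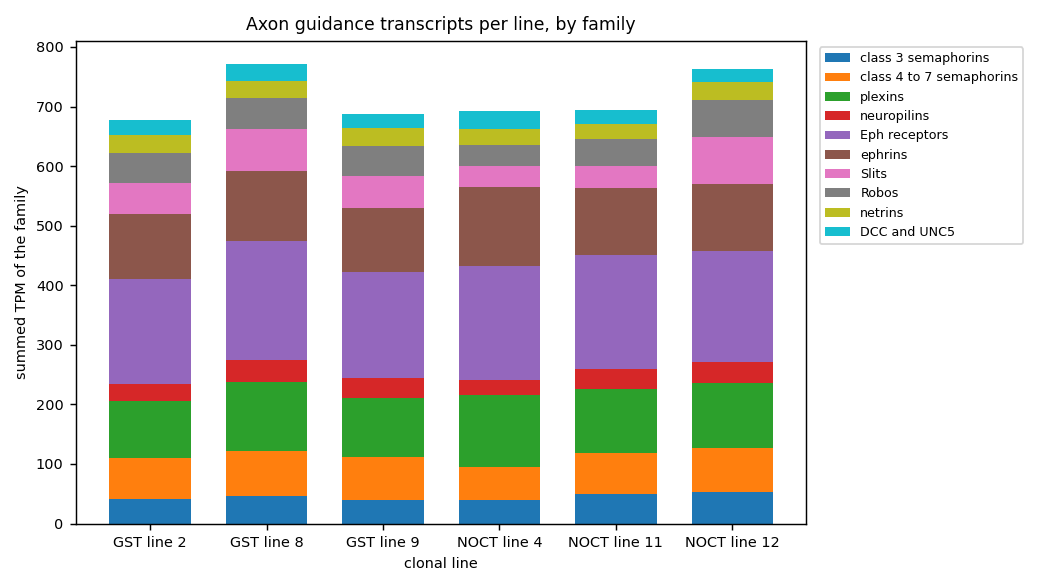
Summed TPM per family in each of the 6 lines, stacked; 1 bar per line. Eph receptors take the largest share in every line, and the Slit segment is smallest in NOCT lines 4 and 11 and largest in NOCT line 12.

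Of the 69 genes, 62 had enough counts for the test between groups; DCC, EPHA1, NTN3, NTN5, PLXNB3, ROBO4 and SEMA4A did not. In edgeR's quasi-likelihood test 0 of the 62 passed an adjusted p of 0.05, beside 10 of 17261 genes (0.0579%; 0.0232% higher and 0.0348% lower). In limma voom the count was also 0 of 62. The smallest adjusted p was 0.121, for EPHB1. An unadjusted p under 0.05 was found for 12 of the 62, of which 9 were lower in the NOCT lines (14.5%, beside 6.52% of all genes tested) and 3 higher (4.84%, beside 7.38%). Together that is 19.4% of the 62, beside 13.9%. UNC5D, among the higher ones, would not have entered the test without the NOCT lines in which it is high. On the same counts DESeq2 called 5 of the 62, all lower in the NOCT lines: EPHA6, EPHB1, PLXNA1, SEMA4D and UNC5B. It called 508 of 17261 genes (2.94%, with 1.57% higher and 1.37% lower). Genes to which DESeq2 gave no adjusted p, EPHA8 and EFNA2 among the 62, are counted here as not called.

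In 11 of the 62 genes the groups did not overlap, 17.7% beside a background of 20%. All 11 were lower in the NOCT lines, where the background is 9.54%, and 0 were higher, where it is 10.5%. They were 5 Eph receptors (EPHA4, EPHA6, EPHA8, EPHB1 and EPHB4), the ephrin EFNA4, the semaphorins SEMA3G and SEMA4D, the plexin PLXNA1, ROBO2 and UNC5B. The median log2 fold change (NOCT minus GST) was -0.08 over the 62 genes, beside 0.00 over all genes. Of the 62, 38 were below 0 (61.3%, beside 49.3% of all genes) and 24 above. When libraries were scaled by their spike-in totals instead, the median of all genes moved to 0.15, the median of the 62 was 0.07, and 30 of them were below 0. With TMM scaling, receptors had a median of -0.22 and ligands of -0.06, and with spike-in totals these were -0.077 and 0.094, so that the sign for ligands turned.

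**Figure D3:**
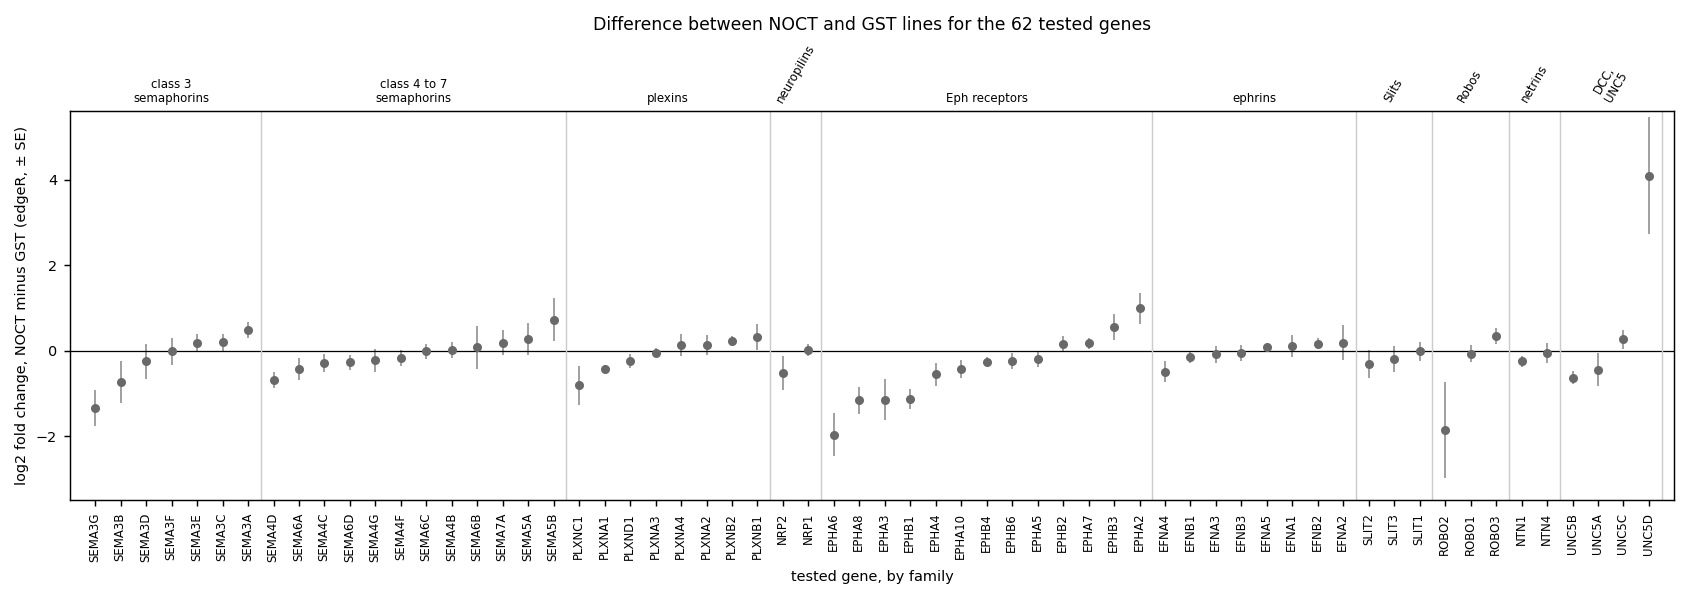
log2 fold change (NOCT minus GST, edgeR) of the 62 tested genes with its standard error, by family; 1 point per gene. UNC5D is the highest point and EPHA6 the lowest, and 38 of the 62 points lie below 0.

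ROBO2 differed widely between lines. This Slit receptor (ENSG00000185008; chromosome 3, 75906695 to 77649964, plus strand, GRCh38) had 487, 775 and 524 counts in GST lines 2, 8 and 9, and 11, 18 and 464 counts in NOCT lines 4, 11 and 12. In CPM, counts divided by the library total and scaled by TMM, these were 25.7, 36.0 and 25.8 in the GST lines and 0.432, 0.808 and 23.3 in the NOCT lines. NOCT lines 4 and 11 were thus close to no ROBO2 RNA, while NOCT line 12 lay just under the lowest GST line. A range of at least 4-fold within a group was found for 5 of 60 guidance genes of at least 1 CPM among the NOCT lines (beside 2.59% of all such genes) and for 1 among the GST lines (UNC5D, beside 0.971%). UNC5D is in both counts but reached a mean of 1 CPM only through NOCT lines 4 and 11. It had 2 to 18 counts in GST lines, so it carries no weight in either count. For ROBO2 in the NOCT group the highest line was 53.9-fold above the lowest, against 1.40-fold within the GST group. Between groups edgeR gave a log2 difference of -1.86 ± 1.115 (SE, adjusted p 0.498). Without NOCT line 12 it was -5.57 (edgeR adjusted p 0.000224). That fit leaves out the only NOCT line near the GST level, so its p-value is no separate support. In such bulk samples, fewer cells with ROBO2 and less ROBO2 RNA per cell cannot be told apart.

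The neighbouring gene ROBO1, the main Robo in these cells, lies next to ROBO2 on chromosome 3 (78597240 to 79767815, minus strand). It did not share the near loss of RNA in NOCT lines 4 and 11, although these were its lowest lines too. ROBO1 stood at 174, 162 and 171 CPM in GST lines 2, 8 and 9 and 112, 156 and 211 CPM in NOCT lines 4, 11 and 12. NOCT lines 4 and 11 were below every GST line and NOCT line 12 above every one, so the groups overlapped (log2 fold change -0.08 ± 0.20, SE, edgeR adjusted p 0.894). Without NOCT line 12 the log2 fold change was -0.33 (edgeR adjusted p 0.198). ROBO3, a divergent Robo, ranged from 6.36 to 9.64 CPM over the lines.

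Their ligand SLIT2 (ENSG00000145147; chromosome 4, 20253260 to 20620561, plus strand) had 184, 231 and 182 CPM in GST lines 2, 8 and 9, and 101, 114 and 265 CPM in NOCT lines 4, 11 and 12. NOCT lines 4 and 11 were below every GST line and NOCT line 12 above every one. The log2 fold change was -0.32 ± 0.34 (SE, edgeR adjusted p 0.7097), and -0.89 without NOCT line 12 (edgeR adjusted p 0.01). SLIT1 (2.42 to 3.07 CPM) and SLIT3 (1.86 to 3.80 CPM) stayed low in every line.

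Among the netrin receptors, UNC5D ran the other way. Counts were 8, 2 and 18 in GST lines 2, 8 and 9. NOCT line 4 had 297, NOCT line 11 had 273, and NOCT line 12 had 0, a value under which as many as 3 could be missed. The CPM values were 0.422, 0.0929 and 0.885 in GST lines, and 11.7, 12.2 and 0 in NOCT lines. It passed the filter on low counts only through NOCT lines 4 and 11. The group means were 0.467 ± 0.398 and 7.98 ± 6.91 CPM (SD, n = 3 each), and the edgeR log2 fold change was 4.09 ± 1.37 (SE, adjusted p 0.254). Without NOCT line 12 it was 4.67 (edgeR adjusted p 0.00220). The lines with the most UNC5D RNA were those nearly without ROBO2 RNA.

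UNC5B (ENSG00000107731; chromosome 10, 71212570 to 71302864, plus strand), the most abundant UNC5 gene, was lower in all 3 NOCT lines. It had 36.0, 47.9 and 39.9 CPM in GST lines 2, 8 and 9 and 27.1, 22.6 and 30.0 CPM in NOCT lines 4, 11 and 12. The groups did not overlap, and each varied within itself by 1.33-fold. edgeR gave a log2 difference of -0.64 ± 0.15 (SE, adjusted p 0.165), and DESeq2 gave -0.64 with an adjusted p of 0.0138. UNC5C (24.5 to 45.4 CPM over the lines) and UNC5A (0.753 to 2.11 CPM) overlapped between groups. NTN1 had 59.7, 47.5 and 51.5 CPM in GST lines and 43.4, 38.2 and 51.4 CPM in NOCT lines 4, 11 and 12, and NOCT line 12 lay within the GST range (log2 fold change -0.26 ± 0.14, SE, edgeR adjusted p 0.456).

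**Figure D4:**
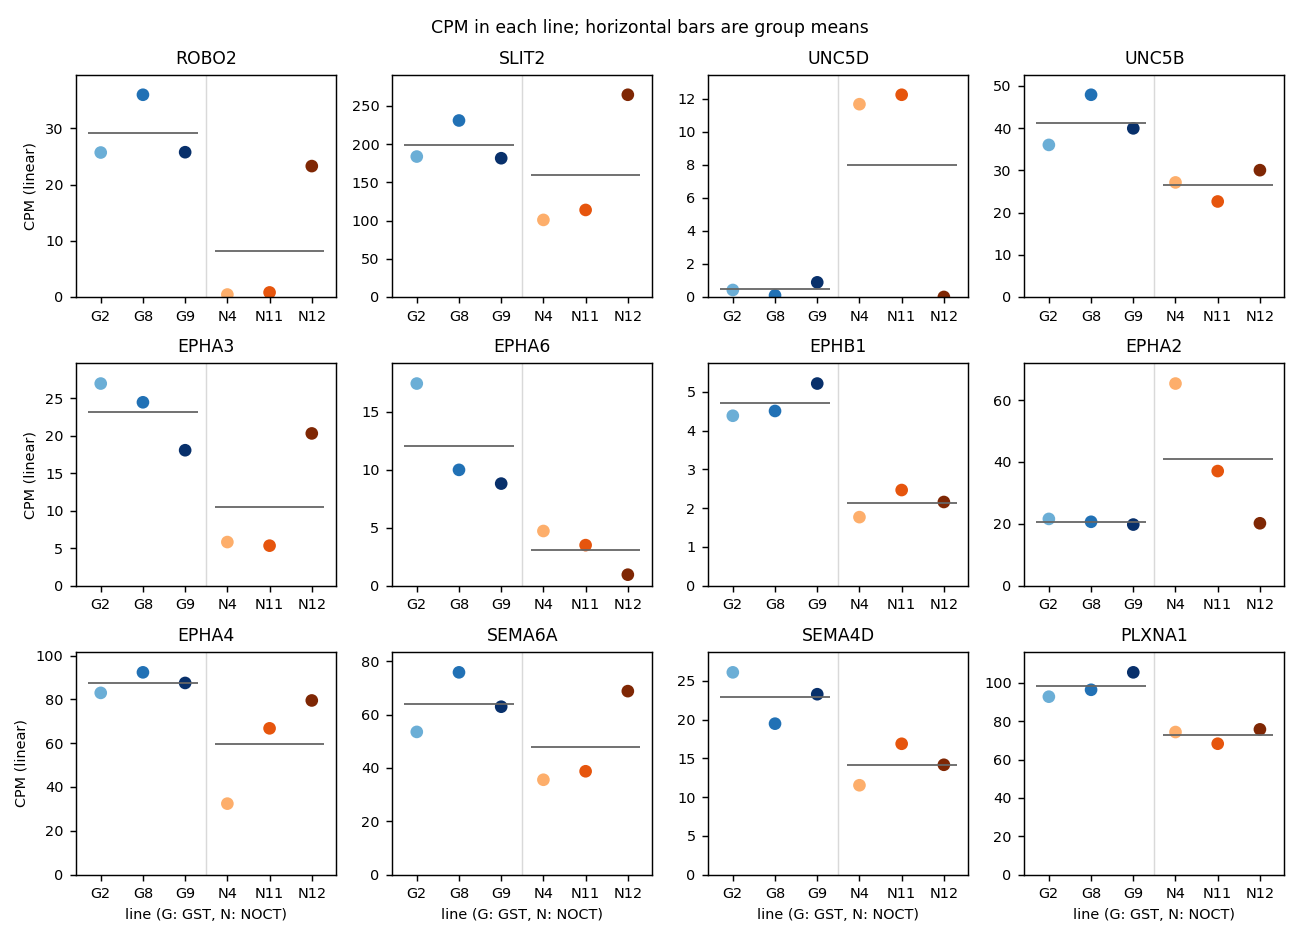
CPM on a linear axis starting at 0 for 12 genes in GST lines 2, 8 and 9 and NOCT lines 4, 11 and 12; 1 point per line, with bars at the group means. ROBO2, SLIT2, EPHA3 and SEMA6A are lowest in NOCT lines 4 and 11, UNC5D and EPHA2 are highest there, and EPHA6, EPHB1, UNC5B, SEMA4D and PLXNA1 are lower in all 3 NOCT lines.

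Eph receptors held 6 of the 12 genes with an unadjusted p under 0.05, 5 lower in the NOCT lines (beside 6.52% of all genes) and 1 higher (beside 7.38%). Of the 13 tested, 9 had a log2 fold change below 0 (beside 49.3% of all genes) and 4 above, with a median of -0.26. For the 8 tested EphA receptors the median was -0.50 and for the 5 EphB receptors -0.25. With spike-in totals the medians were -0.11 for all Eph receptors, -0.35 for EphA and -0.10 for EphB. The summed Eph level was nonetheless alike, 184 ± 13.6 TPM in GST lines and 190.1 ± 3.27 TPM in NOCT lines (SD, n = 3 each). EPHA7 carried much of that sum, with 173, 201 and 167 CPM in GST lines and 179.5, 199 and 229 CPM in NOCT lines 4, 11 and 12.

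The stretches before the start sites of EPHA2, EPHA3, EPHA6 and EPHB1 are shown because these Eph receptors were among those with the largest differences between groups, and EPHA2 differed in the opposite direction to the other 3. They are RefSeq promoter windows on GRCh38.p14, printed 5′ to 3′ on the gene's strand and ended before the first base of any annotated exon; capitals mark the GC box GGGCGG or its reverse complement CCGCCC. The positions are chr1:16156088-16156319 (minus strand) for EPHA2, chr3:89107371-89107523 (plus) for EPHA3, chr3:96814344-96814580 (plus) for EPHA6 and chr3:134795010-134795259 (plus) for EPHB1. The EPHB1 window lies inside a longer annotated gene model, and EPHA6 has a further RefSeq start site downstream, so the start used in these cells is not known from gene counts.
EPHA2: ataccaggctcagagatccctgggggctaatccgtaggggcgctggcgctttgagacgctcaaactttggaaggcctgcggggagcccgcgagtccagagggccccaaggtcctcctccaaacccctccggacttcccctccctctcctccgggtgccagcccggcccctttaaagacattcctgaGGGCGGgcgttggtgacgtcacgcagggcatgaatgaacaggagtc
EPHA3: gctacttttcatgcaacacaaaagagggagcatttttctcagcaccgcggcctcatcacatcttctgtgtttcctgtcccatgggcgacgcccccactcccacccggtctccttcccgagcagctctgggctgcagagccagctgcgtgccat
EPHA6: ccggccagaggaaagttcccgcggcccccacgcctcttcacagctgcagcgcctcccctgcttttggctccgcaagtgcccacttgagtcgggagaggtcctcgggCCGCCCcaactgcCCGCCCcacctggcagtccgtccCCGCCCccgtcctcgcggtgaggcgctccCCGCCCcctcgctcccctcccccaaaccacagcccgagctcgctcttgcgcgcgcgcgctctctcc
EPHB1: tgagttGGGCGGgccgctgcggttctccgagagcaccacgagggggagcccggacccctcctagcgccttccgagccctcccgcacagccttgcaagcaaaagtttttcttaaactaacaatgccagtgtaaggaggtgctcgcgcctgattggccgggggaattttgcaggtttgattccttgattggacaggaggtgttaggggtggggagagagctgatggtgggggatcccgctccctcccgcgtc
The EPHA6 stretch holds 4 GC boxes in 237 bases, EPHA2 holds 1 in 232, EPHB1 1 in 250 and EPHA3 0 in 153. Searched on either strand in the 250 bases before the start, the GC box was in 64 of 91 windows of 59 matched guidance genes (70.3%) and in 42.6% of all 35116 windows. The motif CACGTG was in 4.40% and 6.34%, and TATAAA in 3.30% and 10.7%. None of the printed stretches holds either of those motifs. Guidance genes had a median GC content of 65.2% in these windows, beside 58.0% for all.

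EPHB1 (ENSG00000154928; chromosome 3, 134597801 to 135260467, plus strand) had the smallest p-value of the 62. Its counts were 83, 97 and 106 in GST lines 2, 8 and 9, and 45, 55 and 43 in NOCT lines 4, 11 and 12. In CPM these were 4.38, 4.51 and 5.21 against 1.77, 2.47 and 2.16. The groups were well apart and tight, at 4.70 ± 0.448 and 2.13 ± 0.350 CPM (SD, n = 3 each). The log2 fold change was -1.14 ± 0.23 (SE, edgeR adjusted p 0.121), and DESeq2 gave -1.15 with an adjusted p of 0.00638. By exact permutation of the lines (two-sided) p was 0.1, the smallest that 3 lines against 3 allow.

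EPHA6 (ENSG00000080224; chromosome 3, 96814581 to 97752460, plus strand) was also lower in every NOCT line. It had 17.4, 9.99 and 8.80 CPM in GST lines 2, 8 and 9, and 4.72, 3.50 and 0.954 CPM in NOCT lines 4, 11 and 12. Here NOCT line 12 was the lowest of all 6, unlike for ROBO2. In edgeR the difference was -1.96 ± 0.51 on the log2 scale (SE, adjusted p 0.191), and DESeq2 gave -1.98 with an adjusted p of 0.00207. EPHA8 had 21, 23 and 23 counts in GST lines and 12, 9 and 12 in NOCT lines, at about 1 CPM or less, and edgeR gave -1.159 ± 0.31 on the log2 scale (SE, adjusted p 0.196). EPHB4, at 73.5, 80.8 and 82.8 CPM in GST lines and 58.2, 72.0 and 68.1 CPM in NOCT lines, differed little in size (log2 fold change -0.26 ± 0.11, SE, edgeR adjusted p 0.340).

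EPHA3 and EPHA2 split the NOCT lines. EPHA3 (ENSG00000044524; chromosome 3, 89107524 to 89482134, plus strand) had 26.9, 24.4 and 18.05 CPM in GST lines 2, 8 and 9, and 5.82, 5.34 and 20.3 CPM in NOCT lines 4, 11 and 12. NOCT line 12 lay within the GST range and the other NOCT lines far below it. The log2 fold change was -1.15 ± 0.48 (SE, edgeR adjusted p 0.340), and -2.05 without NOCT line 12 (edgeR adjusted p 0.00209). EPHA2 (ENSG00000142627; chromosome 1, 16124337 to 16156087, minus strand), the Eph receptor typical of epithelial cells, had 21.6, 20.7 and 19.8 CPM in the GST lines, and 65.3, 37.1 and 20.2 CPM in NOCT lines 4, 11 and 12. NOCT line 12 was again at the GST level. This gave a log2 fold change of 0.99 ± 0.36 (edgeR, SE, adjusted p 0.280), and 1.31 without NOCT line 12 (edgeR adjusted p 0.0131).

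EPHA4, a receptor for ephrins of both classes, was low in NOCT line 4 in particular. It had 83.0, 92.4 and 87.5 CPM in GST lines and 32.4, 66.8 and 79.5 CPM in NOCT lines 4, 11 and 12. The groups did not overlap, but the log2 fold change of -0.56 had a standard error of 0.28 (edgeR adjusted p 0.418). Its chromosomal neighbours (median deviation of nearby genes, described further down) were low in NOCT line 4 too, at -0.33 on the log2 scale.

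The ephrins themselves varied little. Of the 8 tested, 0 had an unadjusted p under 0.05 in edgeR, and of the 7 with an adjusted p in DESeq2, 0 were under 0.05; 4 were above and 4 below 0. EFNB2, the most abundant, had 74.4, 69.7 and 64.5 CPM in GST lines and 90.9, 66.9 and 75.5 CPM in NOCT lines 4, 11 and 12 (log2 fold change 0.16 ± 0.13, SE, edgeR adjusted p 0.6095). Its neighbours on chromosome 13 stood at 0.40 in NOCT line 4, the line in which EFNB2 was highest. EFNA5 was the most even, between 37.6 and 44.8 CPM. EFNA4, an A-class ephrin, was the exception in that its groups did not overlap, with 2.85 to 4.09 CPM in GST lines and 2.12 to 2.78 CPM in NOCT lines (log2 fold change -0.49 ± 0.24, SE, edgeR adjusted p 0.418).

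Among the semaphorins, 3 of the 19 tested had an unadjusted p under 0.05, a share near the 13.9% of all genes: SEMA4D and SEMA3G, lower in the NOCT lines, and SEMA3A, higher. SEMA4D (ENSG00000187764; chromosome 9, 89360787 to 89498130, minus strand), a ligand of B plexins, had 26.1, 19.5 and 23.3 CPM in GST lines and 11.5, 16.9 and 14.2 CPM in NOCT lines 4, 11 and 12. In edgeR this made a log2 difference of -0.69 ± 0.18 (SE, adjusted p 0.193), and DESeq2 gave -0.70 with an adjusted p of 0.0224. Its neighbours on chromosome 9 were low in NOCT line 4 (-0.32) and NOCT line 12 (-0.35), whereas NOCT line 11 had 0.12. With the level of the neighbours removed the log2 fold change was -0.34 (edgeR adjusted p 0.347).

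SEMA3G, a class 3 semaphorin, had 47, 24 and 35 counts in GST lines and 21, 9 and 17 in NOCT lines 4, 11 and 12. The groups did not overlap at these low counts (log2 fold change -1.34 ± 0.42, SE, edgeR adjusted p 0.232). SEMA3A, a repellent of sensory axons, had 22.0, 14.9 and 13.8 CPM in GST lines and 24.8, 25.4 and 20.3 CPM in NOCT lines, with GST line 2 inside the NOCT range (log2 fold change 0.48 ± 0.20, SE, edgeR adjusted p 0.335). SEMA3B varied over 5.26-fold within the NOCT group, with 1.02, 3.01 and 5.37 CPM in NOCT lines 4, 11 and 12 beside 4.78 to 5.54 CPM in GST lines (log2 fold change -0.75 ± 0.49, SE, edgeR adjusted p 0.536). SEMA3C, the most abundant class 3 semaphorin, ranged from 38.9 to 63.1 CPM with overlapping groups (log2 fold change 0.19 ± 0.19, SE, edgeR adjusted p 0.692).

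SEMA6A, a transmembrane semaphorin and the most abundant outside class 3, had 53.5, 75.9 and 63.0 CPM in GST lines and 35.6, 38.8 and 68.8 CPM in NOCT lines 4, 11 and 12. NOCT lines 4 and 11 were again the lowest and NOCT line 12 was inside the GST range (log2 fold change -0.43 ± 0.25, SE, edgeR adjusted p 0.4898). Without NOCT line 12 the log2 fold change was -0.79 (edgeR adjusted p 0.0255). SEMA6B had 6.81, 3.62 and 4.52 CPM in GST lines and 8.06, 5.92 and 1.66 CPM in NOCT lines, so that NOCT lines lay on both sides of the GST lines (log2 fold change 0.07 ± 0.51, SE, edgeR adjusted p 0.964).

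Of the semaphorin receptors, PLXNA1 was lower in all 3 NOCT lines. This A plexin (ENSG00000114554; chromosome 3, 126988594 to 127037392, plus strand), a signalling partner of the neuropilins, had 92.8, 96.4 and 106 CPM in GST lines and 74.4, 68.3 and 75.8 CPM in NOCT lines 4, 11 and 12. The difference was small but larger than the spread within either group (98.3 ± 6.55 and 72.8 ± 3.98 CPM, SD, n = 3 each). edgeR put it at -0.43 ± 0.09 on the log2 scale (SE, adjusted p 0.141), and DESeq2 gave -0.44 with an adjusted p of 0.0123. PLXNA3 was level, at 51.0 ± 0.437 CPM in GST lines and 49.4 ± 5.20 CPM in NOCT lines (SD, n = 3 each).

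PLXNB2, the most abundant plexin, had 112, 146 and 117 CPM in GST lines and 146, 134 and 156 CPM in NOCT lines 4, 11 and 12 (log2 fold change 0.22 ± 0.12, SE, edgeR adjusted p 0.4599). It lies on chromosome 22 (50274979 to 50307627), where its neighbours were higher in the NOCT lines by 0.24, and with that level removed its log2 fold change was -0.02. PLXNB1, the SEMA4D receptor, had 15.1 to 17.0 CPM in GST lines and 25.6, 23.4 and 10.6 CPM in NOCT lines 4, 11 and 12, above the GST lines in the first pair and below them in NOCT line 12 (log2 fold change 0.32 ± 0.29, SE, edgeR adjusted p 0.666).

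The co-receptor NRP1 had a group mean of 96.0 ± 7.21 CPM in GST lines and 96.2 ± 17.7 CPM in NOCT lines (SD, n = 3 each). NRP2, which binds class 3 semaphorins and VEGF-C, had 38.9, 48.6 and 47.4 CPM in GST lines and 14.9, 25.0 and 53.9 CPM in NOCT lines 4, 11 and 12. NOCT lines 4 and 11 were the lowest 2 of the 6 lines and NOCT line 12 the highest (log2 fold change -0.53 ± 0.39, SE, edgeR adjusted p 0.589). Without NOCT line 12 the log2 fold change was -1.18 (edgeR adjusted p 0.0214). Its neighbours on chromosome 2 were at -0.36 in NOCT line 4, and NOCT line 11 had a value of 0.04.

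Which guidance genes passed the threshold depended on NOCT line 12. Without it, edgeR called 12 of the 62 guidance genes, 19.4% beside 5.42% of the 17882 genes tested in that fit. The 9 lower ones (beside 2.28% of all genes) were EPHA3, EPHA6, EPHB1, NRP2, PLXNA1, ROBO2, SEMA6A, SLIT2 and UNC5B. The 3 higher ones (beside 3.15%) were EPHA2, PLXNB1 and UNC5D, of which UNC5D entered that fit only through the NOCT lines, where it is high. EPHA3, NRP2 and PLXNB1, as well as EPHA4, EPHB4, EFNA4, NEO1 and the genes given by a range or group means alone, were chosen for description after their values were seen. In the fit of all 6 lines with no filter on low counts, 9 of 68 guidance genes passed (beside 2.57% of all genes), 2 higher (EPHA2 and UNC5D, beside 1.39%) and 7 lower (EPHA3, EPHA6, EPHB1, PLXNA1, ROBO2, SEMA4D and UNC5B, beside 1.18%). Leaving out any other single line gave 0 calls among the 63 to 64 guidance genes tested. For ROBO2, EPHA3, EPHA2 and SEMA6A, NOCT line 12 lay at or near the GST level, so leaving it out widens the difference by itself. The p-values without NOCT line 12, here and above, are thus no separate support. In that fit EPHA4 (edgeR adjusted p 0.0989), EPHA8 (0.0839), SEMA3B (0.0871) and SEMA4D (0.0864) did not pass.

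Each NOCT line was also set against the range of the GST lines by a fixed fold of 2, without a test. NOCT line 4 was more than 2-fold under the lowest GST line in 8 of the 62 genes (12.9%, beside 2.49% of all genes) and more than 2-fold over the highest in 2 (EPHA2 and UNC5D, beside 1.80%). For NOCT line 11 the counts were 5 (8.06%, beside 1.74%) and 1 (UNC5D, beside 1.27%). For NOCT line 12 they were 5 (8.06%, beside 2.55%) and 0 (beside 0.620%). UNC5D would not be among the 62 without NOCT lines 4 and 11, so its place above the GST range there carries no weight. Nor does its place among the 5 low genes of NOCT line 12, with 0 counts beside 2 to 18 in GST lines. EPHA3, EPHA8 and ROBO2 were in the low set of NOCT lines 4 and 11, EPHB1 in that of NOCT lines 4 and 12, and EPHA6 in that of NOCT lines 11 and 12. SEMA6B, UNC5A and UNC5D were low in NOCT line 12. The COL1A1 level was 7.28, 6.37 and 2.14 TPM in NOCT lines 4, 11 and 12, beside 2.79 to 3.00 TPM in GST lines, and VIM was at 856, 806 and 428 TPM beside 353 to 534 TPM. Their part in the guidance gene values was not tested.

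Chromosome 3 carried 13 of the 69 genes, the most of any chromosome, with ROBO1, ROBO2, EPHA3, EPHA6, PLXNA1 and EPHB1 among them. To see whether whole stretches of chromosome moved with the genes, the nearest tested genes, at most 50 to either side, were summarised in each line by their median deviation from the mean of the lines. Around ROBO2, EPHA3 and EPHA6 the neighbours differed between groups by 0.00, 0.01 and 0.01 on the log2 scale, and around EPHB1 and PLXNA1 by -0.02 and -0.03. Around UNC5D, UNC5B and EPHA2 the differences were 0.01, 0.01 and -0.02. With the neighbours' level removed, the log2 fold changes of ROBO2 (-1.86), EPHA6 (-1.98), EPHA3 (-1.15) and EPHB1 (-1.12) stayed within 0.03 of the values above. In that fit 0 of the 62 guidance genes passed, beside 0.214% of all genes (0.0753% higher and 0.139% lower).

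**Figure D5:**
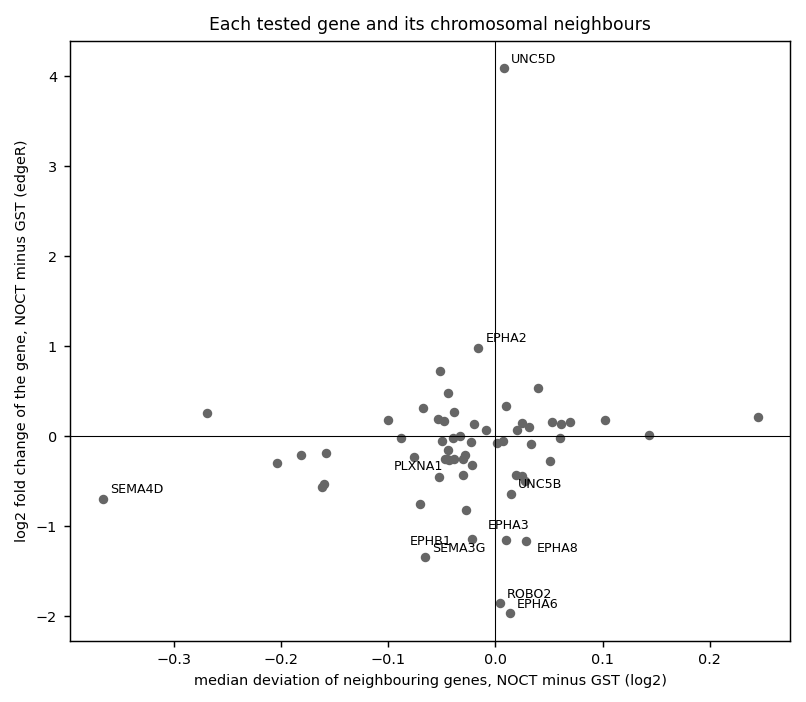
Each of the 62 tested genes by the difference of its chromosomal neighbours (x axis, NOCT minus GST, log2) and its own log2 fold change (y axis, edgeR). The genes with the largest changes sit near 0 on the x axis, while SEMA4D sits at -0.37.

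Other genes of these pathways were read from a list of 73 cofactors and effectors, of which 70 were tested. In edgeR 0 passed an adjusted p of 0.05, beside 0.0579% of all genes. An unadjusted p under 0.05 was found for 21 (beside 13.9%), 18 of them lower in the NOCT lines (beside 6.52%) and 3 higher (beside 7.38%). Their median log2 fold change was -0.10. DESeq2 called 5 (beside 2.94% of all genes): ENAH, CHL1, DPYSL5, VAV2 and LIMK1. ENAH, an actin regulator downstream of Robo and netrin receptors, had 367, 370 and 368 CPM in GST lines and 614, 572 and 528 CPM in NOCT lines 4, 11 and 12. All 3 NOCT lines were above the GST lines, which hardly varied (log2 fold change 0.63 ± 0.09, SE, edgeR adjusted p 0.0567). CHL1, a cell adhesion molecule that works with neuropilin-1, had 1.162 to 3.90 CPM in GST lines and 0.118 to 0.404 CPM in NOCT lines (log2 fold change -3.37 ± 0.58, SE, edgeR adjusted p 0.0942). DPYSL5, of the collapsin response mediators that act downstream of semaphorins, had 75.2 to 93.5 CPM in GST lines and 43.9 to 64.2 CPM in NOCT lines (log2 fold change -0.64 ± 0.15, SE, edgeR adjusted p 0.165). VAV2, an exchange factor recruited by Eph receptors, had 20.3 to 23.9 CPM and 11.2 to 16.2 CPM (log2 fold change -0.66 ± 0.16, SE, edgeR adjusted p 0.184). In 23 of the 70 (32.9%) the groups did not overlap, beside 20% of all genes, with 19 lower in the NOCT lines (beside 9.54%) and 4 higher (beside 10.5%). Among the 19, the neighbours differed by -0.31 around ROCK1, -0.28 around VAV2 and -0.26 around ABL1. With their level removed these log2 fold changes went from -0.54 to -0.25, -0.66 to -0.40 and -0.27 to -0.015. On chromosome 2 the neighbours differed by -0.23 around FARP2, -0.22 around GPC1, -0.20 around DPYSL5 and NGEF and -0.17 around NCK2. These 5 genes are also among the 19. With that level removed they went from -0.48 to -0.27, -0.44 to -0.22, -0.64 to -0.46, -0.84 to -0.65 and -0.42 to -0.26. Others moved the other way, such as FYN, from -0.27 to -0.34. Around SRGAP1 and LIMK1, also among the 19, the neighbours differed by 0.02 and -0.03, with -0.78 and -0.45 left. LIMK2, higher, went from 0.47 to 0.17. How many of the 23 stay apart with that level removed was not tested.

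In the authors' deposited table, 5 of the 60 guidance genes with an adjusted p were under 0.05, beside 2.87% of all genes with one (1.49% higher and 1.38% lower). They were EPHA6, EPHB1, UNC5B, SEMA4D and PLXNA1, all lower in the NOCT lines. The authors' deposited table gives shrunken log2 fold changes of -1.07 for EPHA6, -0.83 for EPHB1, -0.56 for UNC5B, -0.59 for SEMA4D and -0.41 for PLXNA1. In the authors' deposited table UNC5D has 0.15, where the unshrunken edgeR value was 4.09. ROBO2 has -0.15 there, without a raw or adjusted p-value, where edgeR gave -1.86.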

How the data were processed

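Total RNA of 6 clonal HEK293 lines was sequenced with a strand-specific protocol after removal of ribosomal RNA, with spike-in RNAs added, as the labels' protocols state. Counts were deposited as whole reads for each gene; the submitters' processing notes name STAR 2.5.2b, HTSeq 0.6.1p1, DESeq2 1.16.1 and the build GRCh38. No feature was assigned to 26.5% to 30.6% of the counts in a file, and 13.3% to 14.6% were not uniquely aligned; such rows were left out of library sizes. The authors deposited TPM values that are these counts scaled by gene length and depth (49 repeated rows were dropped). The authors' deposited comparison gives a mean normalised signal, a log2 fold change with its standard error, a test score and a raw and adjusted p-value for each gene; its direction was read from the construct rows.

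Counts were tested with edgeR 4.0.16 in R 4.3.3: filterByExpr, TMM scaling and the quasi-likelihood test of NOCT against GST lines, with Benjamini-Hochberg adjustment over 17261 genes. Standard errors were derived from the F statistic. The labels call the lines biological replicates; precision rests on 3 lines per group. Permutation tests used log2(CPM + 0.1). Alternatives were DESeq2 1.42.0, limma 3.58.1, other scalings and filters, the neighbours' offset and leaving out each line. The script was tested on simulated data.

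Genes described were those with an adjusted p under 0.05, the most abundant tested gene of each family and the 10 smallest p-values. Added to these were genes of at least 1 CPM with a 4-fold range within a group. So were genes of at least 1 CPM whose groups did not overlap and whose log2 fold change was at least 1 in size. The genes and lists were chosen with earlier results of these data known. Coordinates are from GENCODE 29 on GRCh38, promoters from RefSeq.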

Additional observations from a re-analysis of the deposited data

How the results depend on the processing

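The number of all genes called, 10 in edgeR, was 508 in DESeq2, 888 without a filter on low counts, 37 with the level of neighbouring genes removed, 22 with spike-in totals as library sizes and 16 in limma voom; leaving out 1 line gave 0 to 970. The number of guidance genes called, 0 in edgeR, was 5 in DESeq2 (0 higher, 5 lower) and 9 without a filter (2 higher, 7 lower), where 68 were tested. Leaving out 1 line gave 0 to 12 (0 to 3 higher, 0 to 9 lower), with 12 only when NOCT line 12 was left out and 0 otherwise. The cause of these differences was not tested. The median log2 fold change of the guidance genes, -0.08, was 0.067 with spike-in totals.

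Of 22 genes named by rule, 18 kept their direction in every alternative run. NRP1, at 0.00, was at -0.0054 in DESeq2, -0.0054 with RLE scaling, -0.016 in limma voom, -0.0049 without a filter, and 0.15 with spike-in totals. PLXNB2 was at -0.023 with the neighbours' level removed. ROBO1 was at 0.069 with spike-in totals. SEMA6B was at -0.064 on log2(TPM + 0.1) and -0.097 in limma voom. Leaving out 1 line, log2 fold changes ran from -0.13 to 0.13 for NRP1, from -0.33 to 0.12 for ROBO1 and from -0.39 to 0.49 for SEMA6B.

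No paired analysis was possible because the line numbers of the groups (2, 8 and 9 against 4, 11 and 12) share none. Low counts limit EPHA8 and SEMA3G in every line, ROBO2 in NOCT lines 4 and 11 (11 and 18 counts), UNC5D in the GST lines (2 to 18 counts) and EPHA6 in NOCT line 12 (19 counts), and fold changes on the log2(TPM + 1) scale understate low genes, such as UNC5D, at 1.26.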

Other observations

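SLIT2-IT1, annotated as a transcript within an intron of SLIT2 on the same strand of chromosome 4, could be read beside its host. It had 4.44, 5.76 and 3.49 CPM in GST lines 2, 8 and 9 and 2.12, 2.38 and 4.72 CPM in NOCT lines 4, 11 and 12. As for SLIT2, NOCT lines 4 and 11 were the lowest of the 6 lines, and NOCT line 12 was inside the GST range (edgeR adjusted p 0.507). Reads of unspliced SLIT2 RNA would be counted in this row as well, so it is not an independent measurement of the gene. The other transcripts named after a guidance gene were EPHA5-AS1, with 23 to 49 counts per library, and 8 with at most 27 counts over all 6 libraries.

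Among the 7 guidance genes left out of the test for low counts, the groups did not overlap for NTN3, a netrin, and SEMA4A, a class 4 semaphorin. Both were higher in the NOCT lines, as were 10.5% of all tested genes, and no share was computed for untested genes. The separation rests on few counts. NTN3 had 8, 7 and 9 counts in GST lines 2, 8 and 9 and 14, 10 and 10 in NOCT lines 4, 11 and 12. SEMA4A had 8, 1 and 2 counts in the GST lines and 11, 12 and 15 in the NOCT lines. NTN3 had 0.476 to 0.619 TPM in GST lines and 0.670 to 0.857 TPM in NOCT lines. SEMA4A had 0.0198 to 0.166 TPM in GST lines and 0.196 to 0.312 TPM in NOCT lines. With no filter on low counts, edgeR gave log2 fold changes of 0.33 for NTN3 (adjusted p 0.828) and 1.60 for SEMA4A (adjusted p 0.259), neither past the threshold.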
